A study of Mus musculus with 4 samples.

Results

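The comparison described here set 1 array of organoid RNA, labelled y-organoid, against 1 array of RNA from whole mouse intestine. These are 2 of the 4 arrays of the series. The other two, of isolated crypts and of an organoid sample labelled o-organoid, are given beside them where their values bear on a result. All 4 samples came from wild type C57/BL6 mice, and both organoid samples are described as crypt-villus organoids, which are hollow epithelial structures grown in culture from intestinal crypts. Labelled RNA was made from 20 ng of total RNA for the intestine, the y-organoid and the crypt and from 40 ng for the o-organoid. The meaning of the letters y and o, the part of the gut, the culture medium, the number, age and sex of the animals and any pooling are not given in the sources used here. By its title, the series is about non-neuronal acetylcholine and the Lgr5-positive stem cells of the gut.

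The wall of the intestine is a single sheet of epithelium over connective tissue, vessels, nerves, immune cells and layers of smooth muscle. At the base of each crypt, stem cells divide under the influence of Wnt and R-spondin signals and lie between Paneth cells, which secrete defensins and lysozyme. Their progeny divide in the crypt and become absorptive enterocytes, which line the villus and carry the brush border, or secretory goblet, enteroendocrine and tuft cells. An organoid holds the epithelium alone, fed by factors in its medium and without the muscle, vessels, nerves, immune cells and microbes of the organ.

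Signals are log2 intensities relative to the 75th percentile of each array, so that 0 stands for a spot at an intensity of 386 on the intestine array and 281 on the y-organoid array. A difference is the y-organoid signal minus the intestine signal, on the log2 scale, and each gene was read by its brightest probe. There were no replicates, so the differences describe a pair of arrays and have no test. Where a gene was not well above background on one array, only a bound can be given. It is measured from the higher of the gene's own signal there and the lowest signal well above background on that array. That lowest signal was -4.48 on the intestine and -4.47 on the y-organoid. By the scanner software's flag, 58.7% of the 43020 non-control spots were well above background in the intestine and 54.2% in the y-organoid. Over 227 probes spotted repeatedly and measured on both arrays, the median SD of the difference between single spots was 0.088, and it was 0.24 over the dimmest 33. This is the noise of a spot, not of an animal or a culture.

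In all, 15284 genes were well above background on both arrays, and their differences had a median of 0.26. Of them 751 were higher by 4-fold or more in the y-organoid (4.91%) and 905 were lower by as much (5.92%). A further 170 genes were past 4-fold higher and 959 past 4-fold lower as bounds. The split leaned on the scaling: it was 1076 higher and 744 lower with the authors' deposited scaling, 1125 and 728 with the general epithelial genes set to a median of 0, 494 and 1108 with spike-in scaling, and 328 and 634 after another background correction. Past 100-fold there were 4 measured genes on the higher side and 40 on the lower side. All 4 on the higher side were read by probes with a repeat of alternating G and A, treated below. They were Klra1, Tbx22, Scn3b and a probe without a gene name. Of 316 genes past 4-fold that had another measured probe, that probe was at least 2-fold off in the same direction for 254 and of opposite sign for 16. Among the 18720 genes above background on at least 1 array, 20.6% were 2-fold or more higher and 19.9% were lower by as much, by value or bound, with a median of 0.16, and the gene lists below are read against these shares.

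**Figure D1:**
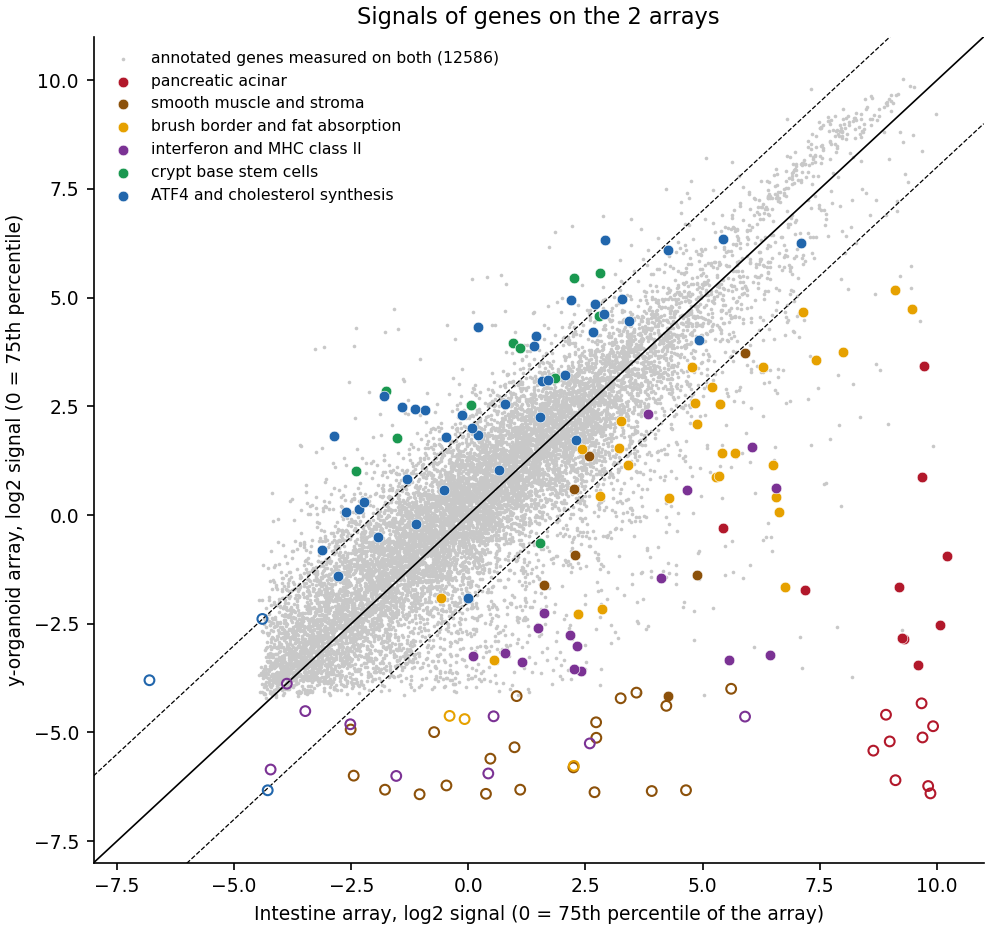
Log2 signal of each gene on the intestine array (x) and the y-organoid array (y), relative to the 75th percentile of each array, for the 12586 annotated genes measured on both (grey) and the members of gene lists (colours). The solid line marks equal signals and the dashed lines a 4-fold difference, and open circles are members well above background on only 1 of the arrays. Pancreatic genes lie at the lower right, with intestine signals up to 10.21, and crypt base stem cell genes lie above the diagonal except Msi1.

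Transcripts of tissues other than epithelium marked the intestine array. All 12 of the 12 smooth muscle genes with a value or bound were lower by 2-fold or more in the y-organoid, with a median difference of -5.2. Acta2, the smooth muscle actin, had a signal of 4.26 on the intestine array and -4.15 on the y-organoid array, which is 341-fold lower. Actg2, the enteric smooth muscle actin, had 4.23 on the intestine array, was not well above background on the y-organoid array and was thus at least 392-fold lower. Myl9, a myosin light chain that epithelial cells also use, had 5.9 on the intestine, 3.73 on the y-organoid and -4.06 on the crypt array.

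All 16 connective tissue genes were at least 2-fold lower, 14 of them as bounds because they were not well above background on the y-organoid array, and the median was -5.38. Sparc, a matrix glycoprotein, had an intestine signal of 5.61 and was at least 779-fold lower in the y-organoid. Dcn, the proteoglycan decorin, had 4.65 and was at least 554-fold lower. The collagen genes Col1a1, Col1a2, Col3a1, Col6a1 and Col6a3 were above background on the intestine array only of the pair. Vim, the intermediate filament of mesenchymal cells, remained measurable on both arrays, at 1.62 on the intestine and -1.62 on the y-organoid, a difference of -3.24. In bulk RNA, fewer cells of a type and less RNA of a gene per cell cannot be told apart, here and in what follows.

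Endothelial genes had a median difference of -1.96, with 6 of 11 at least 2-fold lower and 5 within 2-fold. Plvap, a protein of capillary windows, had 2.82 on the intestine and -3.91 on the y-organoid array by its brightest probe, 106-fold lower. Its other measured probe gave a smaller difference of -3.99. Kdr, a VEGF receptor, was at 2.79 and 2.94 by its brightest probe. The median difference of its probes was -2.93, but no other probe of Kdr was well above background on both arrays. Of 12 enteric neuron and glia genes, 6 were at least 2-fold lower, all as bounds, and none was 2-fold higher. Vip, a neuropeptide of inhibitory motor neurons, was at least 9.77-fold lower, and Prph, a neuronal intermediate filament, was at least 9.12-fold lower. Snap25, a vesicle fusion protein that enteroendocrine cells also use, was close on both arrays, at 4.34 and 4.72. The pacemaker cell genes Kit, Ano1 and Etv1 were within 2-fold, and 1 further member was dim on both arrays. Against the intestine, Ano1 differed by -2.54 on the crypt and -2.04 on the o-organoid array, and Etv1 by -1.99 and -2.09. Kit differed by -0.29 and 1.62 on these arrays. Which cells carried these transcripts was not tested.

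Most leukocyte transcripts were lower in the y-organoid, many of them not above background there. All 7 B and plasma cell genes, all 7 T cell genes and all 5 pan-leukocyte genes were at least 2-fold lower, with medians of -3.91, -4.99 and -3.14. Jchain, which joins secreted immunoglobulin A, had an intestine signal of 6.25 and was at least 1679-fold lower. Gzma, a granule protease of intraepithelial T cells, had 5.92 on the intestine and 3.01 on the crypt array and was at least 1339-fold lower in the y-organoid than in the intestine. Cd3e, a chain of the T cell receptor complex, was measured on both arrays, at 2.0 and 0.48, while Cd3d and Cd3g of the same complex were not above background on the y-organoid array.

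Of 14 myeloid and mast cell genes, 11 were at least 2-fold lower, with a median of -3.05. C1qa, a complement subunit made by macrophages, was at least 106-fold lower. Csf1r, their growth factor receptor, had 4.23 and -0.05 by its brightest probe, 19.3-fold lower. Its 2 other measured probes gave a smaller median difference of -1.82. Itgam, an integrin chain of myeloid cells, was within 2-fold at 4.87 and 5.31, and stood at 4.69 and 3.57 on the crypt and o-organoid arrays. Tpsb2, a mast cell tryptase, was the only member 2-fold higher, at -2.29 and -1.0.

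The largest differences of the whole comparison were those of digestive enzymes made by the acinar cells of the pancreas. All 19 acinar genes were lower on the y-organoid array, with a median of -13.04. Prss2, a trypsinogen, had an intestine signal of 9.69 and was at least 18321-fold lower, and Cpb1, a carboxypeptidase, had 9.86 and was at least 20602-fold lower. Ctrb1, a chymotrypsinogen, had 10.21 on the intestine and -0.95 on the y-organoid array, 2295-fold lower. The trypsinogens and the amylases Amy1 and Amy2a5 are families of near-identical genes whose probes may share transcripts. Of the 10 measured genes with the largest lower differences, 8 encode pancreatic enzymes (among them Ctrl, Cel, Cela1, Amy2a5, Amy1, Ctrb1 and Pnliprp1), beside Hba-a2, a globin, and Reg3b, and the 5 largest lower bounds were Try5, Cpb1, Cela3b, Prss2 and Cpa1. Insulin was there as well: Ins1 had 5.03 on the intestine and -4.13 on the y-organoid array. All 7 fat and red cell genes with a value were lower too, among them the adipocyte genes Adipoq (at least 32.4-fold lower) and Fabp4 (at least 163-fold lower).

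The intestine and y-organoid samples also differed in sex-linked transcripts. Xist, the RNA that silences an X chromosome in female cells, had a signal of -1.17 on the intestine array and was not above background on the y-organoid array. Eif2s3y, a gene of the Y chromosome, had 1.28 on the y-organoid and 1.08 on the crypt array and was not above background on the intestine array, and Ddx3y, Uty and Kdm5d were likewise above background on the y-organoid array only of the pair. The animals or their sex and the tissue can therefore not be told apart in any difference given here.

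The y-organoid carried the markers of intestinal epithelium. All 19 general epithelial genes were well above background on both arrays, 14 of them within 2-fold, and the median difference was -0.26. Cdh1, the adhesion molecule E-cadherin, had 2.77 on the intestine and 2.98 on the y-organoid array. Krt8, a keratin of simple epithelia, had 7.52 and 7.02. Cdx2, the factor that sets intestinal identity, had 3.25 and 3.99, and Hnf4a, a factor of enterocyte genes, had 5.35 and 5.81. Vil1, the actin bundler of microvilli, was the furthest below, at 6.94 and 4.22 (6.62-fold lower), and Krt18 the furthest above, at 5.78 and 7.8 (4.05-fold higher). The 14 housekeeping genes, Actb among them, differed by a median of 0.59, and Actb itself by -0.40.

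**Figure D2:**
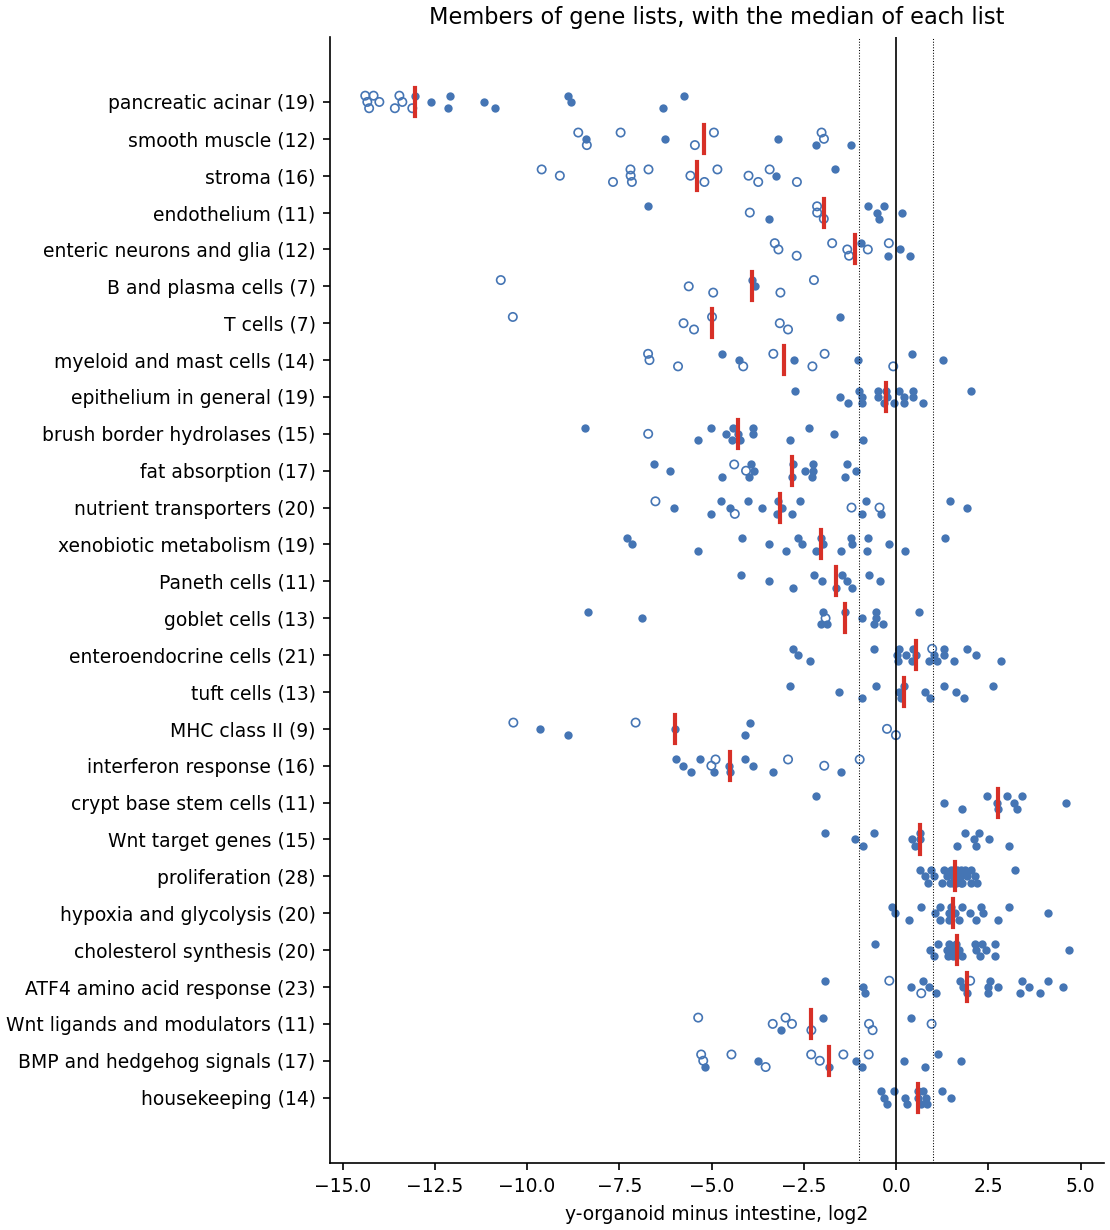
Difference between the y-organoid and intestine arrays (log2, x) for the members of 28 gene lists, with the number of members that have a value or bound in brackets. Filled points were measured on both arrays, open points are bounds, red bars are list medians and dotted lines mark 2-fold. Pancreatic, muscle and connective tissue lists lie far to the left, the epithelial list at -0.26, and the crypt base stem cell list at 2.77.

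After normexp background correction, the medians of the endothelial, neuronal, goblet, microbial, reserve stem, fetal-like, YAP, immediate early, Wnt ligand, BMP and sex-linked lists came within 2-fold.

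Genes of mature enterocytes were lower in the y-organoid. Of 15 brush border hydrolases, 14 were at least 2-fold lower and Mep1a alone was within 2-fold, with a median of -4.27. Lct, the lactase that splits milk sugar, had 6.77 on the intestine and -1.66 on the y-organoid array, 343-fold lower. Anpep, an aminopeptidase, had 8.0 and 3.76, 18.9-fold lower. Alpi, the intestinal alkaline phosphatase, had 5.69 and 1.42, 19.3-fold lower, and 4.01 on the o-organoid array. Sis, the sucrase-isomaltase, had 6.29 and 3.41, 7.35-fold lower. Tmprss15, the enterokinase that activates trypsinogen, had 2.25 on the intestine and -0.23 on the crypt array and was not above background on the y-organoid array, where it was at least 105-fold lower.

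All 17 genes of fat absorption were at least 2-fold lower, with a median of -2.83. Apoa4, an apolipoprotein of chylomicrons, had 6.63 on the intestine and 0.06 on the y-organoid array, 94.5-fold lower. Fabp2, the intestinal fatty acid binding protein, had 9.48 and 4.75, 26.5-fold lower. Apob and Mttp, which assemble the chylomicron, differed by -2.83 and -2.79, and the acyltransferases Dgat1 and Dgat2, which make triglyceride, by -2.28 and -2.24. Retinoid genes followed: Rbp2, the vitamin A binding protein of enterocytes, had 5.47 and -1.37, and 5 of 6 members were at least 2-fold lower.

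Of 20 nutrient transporters and their partners, 14 were at least 2-fold lower, with a median of -3.14. Slc51b, a subunit of the bile acid exporter of enterocytes, had 3.59 and -2.43, 64.9-fold lower, and Slc51a, its partner, had 5.61 and 1.11. Slc5a1, the sodium-glucose transporter, and Slc2a5, the fructose transporter, differed by -3.19 and -3.63. Slc15a1, the peptide transporter, and Cubn, the receptor of the cobalamin complex, were above background on the intestine array only of the pair, at least 20.7-fold lower and at least 91.9-fold lower. Cybrd1, an iron reductase, and Slc1a1, a glutamate transporter, went the other way, by 1.93 and 1.45.

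Detoxifying enzymes were lower as well, with 14 of 19 at least 2-fold lower and a median of -2.02. Cyp3a11, a main drug-oxidising cytochrome, had 5.85 and -1.45, 157-fold lower, and Cyp2b10 had 6.01 and -1.15, 143-fold lower, against 4.59 on the o-organoid array. Gstm1, a glutathione transferase, was the only member 2-fold higher, by 1.33. Of 13 genes of fatty acid oxidation under PPAR receptors, 10 were at least 2-fold lower. Pdk4, a kinase that restrains glucose oxidation, was at least 13.3-fold lower, while the thioesterases Acot1 and Acot2 were higher by 1.21 and 1.05.

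On the crypt array the medians of these lists lay within 2-fold of the intestine array, which serves as the comparator of both differences. The crypt array's medians against it were -0.07 for brush border hydrolases, -0.15 for fat absorption and -0.23 for nutrient transporters. The o-organoid array's medians were -3.14, -2.45 and -2.1. For detoxifying enzymes the y-organoid median of -2.02 stood beside -0.07 on the crypt and -0.15 on the o-organoid array. For the PPAR list the medians were -1.4, 0.54 and -0.77 in the same order. For smooth muscle and stroma, by contrast, the crypt array had medians of -5.37 and -5.59.

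Among secretory cells, the Paneth and goblet lists were lower and the enteroendocrine and tuft lists were mixed. The Paneth list had 9 of 11 members lower by 2-fold or more, none was 2-fold higher and the median was -1.63. Lyz1, the Paneth lysozyme, had 7.38 on the intestine and 5.91 on the y-organoid array, 2.78-fold lower. Mmp7, which matures defensins, had 3.13 and -0.33, 11-fold lower. The defensins ranged from Defa26 (-4.2) to Defa23 (-0.74), and since they are near-identical copies, their probes may share transcripts. Every Paneth gene stayed well above background in the y-organoid, and Mmp7 and Defa26 stood at 2.79 and 5.96 on the o-organoid array.

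Of 13 goblet cell genes, 7 were at least 2-fold lower and 6 within 2-fold, with a median of -1.39. Zg16, a lectin-like protein that binds bacteria in mucus, had 9.93 and 1.58, 325-fold lower, and Klk1, a kallikrein, had 7.6 and 0.71, 118-fold lower. On the crypt array Zg16 had 8.83 and Klk1 had 3.38, so Klk1 was already 18.6-fold lower there than in the intestine. Which cells carried Klk1 in the intestine was not tested. Tff3 and Spink4, also secreted by goblet cells, differed by only -0.92 and -0.53, and Atoh1 and Spdef, factors of the secretory and goblet fates, by -0.56 and -0.36. Clca1, counted here as within 2-fold, differed by 0.63 by its brightest probe and by -6.31 by its other measured probe. The median of its probes was -2.84.

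Of 21 enteroendocrine genes, 8 were at least 2-fold higher, 3 lower and 10 within 2-fold. Neurog3, the factor that starts the endocrine fate, had 0.15 on the intestine, 1.65 on the crypt, 3.0 on the y-organoid and 4.02 on the o-organoid array. It was thus 7.21-fold higher on the y-organoid than on the intestine array. The later factors Neurod1 and Pax4 were higher by 1.29 and 1.01. The hormones split: Tac1, the precursor of substance P, differed by 2.17 and Gcg, of glucagon-like peptides, by 1.29. Cck, Gip, Ghrl and Sst were within 2-fold, while Sct, Nts and Pyy were lower, by -2.8, -2.66 and -2.33. Sct, secretin, had 5.55 and 2.74.

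Of 13 tuft cell genes with a value or bound, 4 were at least 2-fold higher and 2 lower, against 20.6% and 19.9% of all genes. Dclk1, a kinase that marks tuft cells, had -3.16 on the intestine, -0.54 on the y-organoid and -4.04 on the o-organoid array. Trpm5, the cation channel of taste-like cells, had -2.39, -0.54 and -2.72 on the same arrays. Pou2f3, the factor of the tuft lineage, differed by 0.91, and Ptgs1 and Alox5, enzymes that blood and immune cells also carry, by -2.88 and -1.54. Lrmp was lower as well, by -0.54, and Siglecf differed by -0.92 by its brightest probe and by 0.47 by its other probe. The y-organoid had the highest signal of the 4 arrays for Dclk1, Trpm5 and Pou2f3. Of these, Pou2f3 was dim, at -3.80 on the intestine and -2.88 on the y-organoid array.

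**Figure D3:**
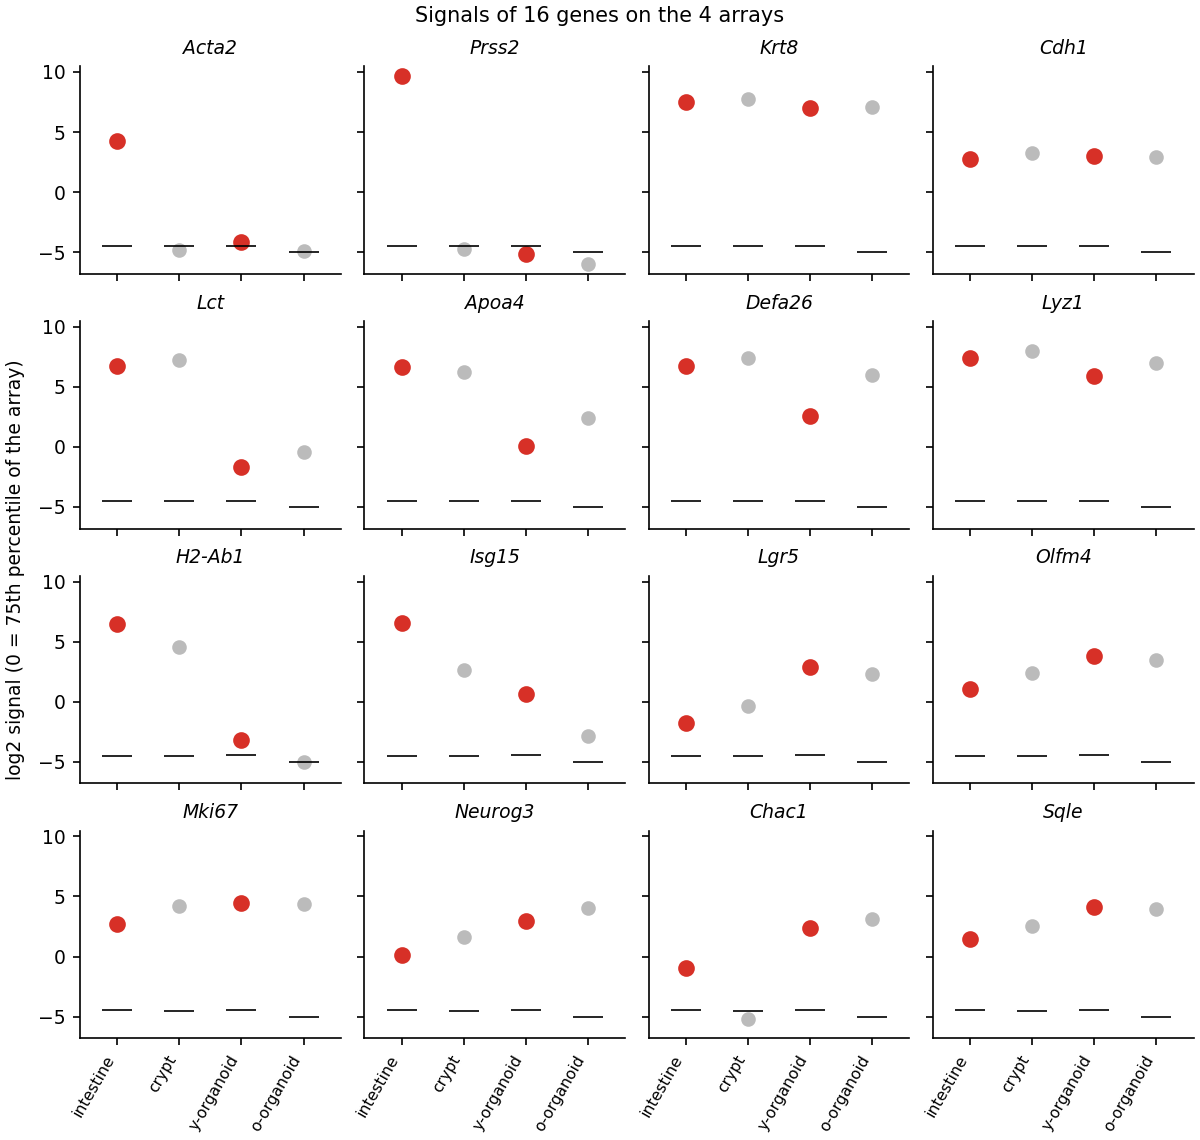
Log2 signal, relative to the 75th percentile of each array, of 16 genes on the 4 arrays. Red points are the intestine and y-organoid arrays, grey points the crypt and o-organoid arrays, and black dashes the lowest signal well above background on each array. Lct stood at 6.77 on the intestine and -1.66 on the y-organoid array, Lgr5 at -1.75 and 2.85, and Krt8 at 7.52 and 7.02.

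Genes that immune signals and microbes can switch on in epithelium were lower in the y-organoid than in the intestine. MHC class II molecules, which present antigen and which enterocytes make under interferon gamma, had a median of -6.01, with 7 of 9 at least 2-fold lower. H2-Ab1, a class II chain, had 6.43 on the intestine, 4.55 on the crypt and -3.22 on the y-organoid array, 803-fold lower on the y-organoid than on the intestine. Cd74, the invariant chain, had 5.55 and -3.33, 471-fold lower. H2-DMb2 and Ciita, the master factor of the group, were dim on the intestine array already, although all 9 were well above background there. Leukocytes carry class II molecules as well, and their part in the difference was not tested.

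The Reg3 lectins, which kill bacteria and are made in response to them, were lower by large factors. Reg3b had 7.86 on the intestine, 6.69 on the crypt and -2.58 on the y-organoid array, 1391-fold lower on the y-organoid than on the intestine, and Reg3g had 6.52 and 1.27, 38-fold lower. Of 11 genes of the microbial response, 7 were at least 2-fold lower. Nos2, Saa1 and Duox2 were within 2-fold at low signals. Pigr, which carries immunoglobulin A through the epithelium, was the only member higher by 2-fold or more, at 5.27 and 6.52 by its brightest probe, and its other probe had a difference of -1.24.

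Of 16 interferon-stimulated genes, 15 were at least 2-fold lower and the median was -4.51. Isg15, a ubiquitin-like modifier, had 6.56 on the intestine, 2.63 on the crypt, 0.61 on the y-organoid and -2.87 on the o-organoid array, and was 61.9-fold lower on the y-organoid than on the intestine. Oas1a, which senses double-stranded RNA, had 6.05 and 1.56, 22.6-fold lower, and Irf7, the factor that amplifies the response, had 2.16 and -2.77, 30.5-fold lower. Ifit1 and Rsad2, both antiviral, were lower by 17.1-fold and 22.9-fold. Bst2, which tethers virus particles to the cell, had the smallest difference of those above background on both arrays, -1.49. For the MHC class II, microbial and interferon lists the crypt array's medians against the intestine were -1.58, -0.93 and -2.93. The y-organoid minus crypt medians were -4.42, -0.097 and -1.32 in the same order. Which cells carried the microbial and interferon transcripts in the intestine was not tested.

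The stem cell end of the epithelium stood higher in the y-organoid. Of 11 crypt base stem cell genes, 10 were at least 2-fold higher, 8 of them at least 4-fold, with a median of 2.77. Lgr5, the R-spondin receptor that defines these cells, had -1.75 on the intestine, -0.39 on the crypt, 2.85 on the y-organoid and 2.32 on the o-organoid array. Its y-organoid signal was 24.3-fold higher than the intestine signal. Ascl2, a Wnt-driven factor of stem cell fate, had 0.95 and 3.95, 8.01-fold higher, and Olfm4, a secreted glycoprotein of stem cells, had 1.09 and 3.83, 6.67-fold higher. Tnfrsf19, Aqp4 and Slc12a2 were higher by 3.42, 3.28 and 3.19. Msi1, an RNA-binding protein, had the opposite sign, -2.17, by its brightest probe. The median of its probes gave 0.40, but no other probe of Msi1 was well above background on both arrays. Of the reserve stem cell genes, Hopx and Lrig1 were higher by 1.85 and 1.66, Tert was dim and above background on every array but that of the intestine, and Bmi1 differed by 0.04.

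Wnt target genes were split between the array pair. Of 15, 7 were at least 2-fold higher, 2 lower and 6 within 2-fold. Axin2, a feedback inhibitor of the pathway, had -3.23 on the intestine, -2.59 on the crypt, -0.16 on the y-organoid and -1.59 on the o-organoid array, and was 8.38-fold higher on the y-organoid than on the intestine. Myc, Sox9 and Ccnd1, which drive growth and the crypt state, were higher by 2.52, 2.24 and 2.15, and Rnf43 and Znrf3, ligases that remove Wnt receptors, by 1.66 and 1.85. Nkd1 and Notum, also feedback inhibitors, were lower, by -1.93 and -1.11.

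Genes of dividing cells were mostly higher in the y-organoid. Of 28 proliferation genes, 24 were at least 2-fold higher and none was 2-fold lower, and the median was 1.6. Mki67, which marks cycling cells, had 2.73 on the intestine, 4.23 on the crypt, 4.48 on the y-organoid and 4.37 on the o-organoid array. The subunits of the replicative helicase ran from Mcm5, at 0.87, to Mcm3, at 2.19. Ndc80, of the kinetochore, had the largest difference, from -4.38 near background to -1.16. The proliferation median of the crypt array against the same intestine array was 1.57.

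Ligands and antagonists of the stem cell niche were mostly lower in the y-organoid or dim. Among 11 Wnt ligands and modulators with a value or bound, 7 were at least 2-fold lower and none was 2-fold higher. Rspo1 and Rspo3, R-spondins that potentiate Wnt signals, were above background on the intestine array only of the pair, at least 10.2-fold lower and at least 4.91-fold lower. Wnt5a, of the stroma, was at least 7.07-fold lower, and Wnt4 had 1.21 and -1.9, 8.64-fold lower. Dkk3 and Sfrp1, secreted modulators, were at least 41.2-fold lower and at least 7.98-fold lower. Wnt3, the Wnt of Paneth cells, was not well above background on either array.

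Of 17 BMP and hedgehog genes, 11 were at least 2-fold lower and 2 higher. Bmp4, a BMP of the villus stroma, had 1.55 and -3.64, 36.4-fold lower. Grem1, a BMP antagonist of muscle and stroma, was at least 38.9-fold lower, and Gli1 and Foxf1, which hedgehog switches on in stroma, were at least 11.6-fold lower and at least 37.5-fold lower. Ihh, the hedgehog that epithelium sends, had 2.62 and 3.75, 2.19-fold higher, and Bmp7 was higher by 1.75. The BMP targets Id1, Id2 and Id3 were lower, by -1.81, -1.08 and -3.75.

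Of 12 Notch genes, a pathway that sets the choice between absorptive and secretory fates, 3 were at least 2-fold higher and 1 lower, against 20.6% and 19.9% of all genes. The target Hes1 was higher by 1.28, and Jag2, a ligand, and Hes5, a target, were above background in both organoids and not in the intestine, Jag2 at least 7.04-fold higher and Hes5 at least 4.22-fold higher. Among EGF family genes, Areg, amphiregulin, had -0.28 on the intestine, -2.3 on the crypt, 4.05 on the y-organoid and 0.90 on the o-organoid array. It was 20.1-fold higher on the y-organoid than on the intestine array. Btc, betacellulin, was at least 5.65-fold higher, while Nrg1, Egf and Ereg were above background on the intestine array only of the pair. The receptors Egfr, Erbb2 and Erbb3 differed by 0.59, -0.07 and -0.08.

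Several groups of metabolic and stress genes were higher in the y-organoid. The ATF4 response, by which cells short of amino acids or with stressed endoplasmic reticulum raise amino acid synthesis and uptake, had a median of 1.92, with 15 of 23 at least 2-fold higher and 1 lower. Psat1, of serine synthesis, had 0.20 on the intestine and 4.32 on the y-organoid array, 17.3-fold higher. Mthfd2, of mitochondrial folate metabolism, had -1.15 and 2.44, 12-fold higher. Chac1, which degrades glutathione, had -0.93 on the intestine, was not above background on the crypt array and had 2.41 and 3.13 on the y-organoid and o-organoid arrays. Stc2, a secreted glycoprotein, and Vldlr, a lipoprotein receptor, were higher by 23-fold and 14.8-fold, and Asns, asparagine synthetase, by 3.53-fold. Atf4 itself differed by 0.90, and Atf3 was lower by 3.78-fold.

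Cholesterol synthesis was higher as a group, with 18 of 20 genes at least 2-fold higher and a median of 1.66. Sqle and Lss, which turn squalene into the first sterol, were higher by 6.38-fold and 6.41-fold. Sqle had 1.43 on the intestine, 2.57 on the crypt, 4.11 on the y-organoid and 3.95 on the o-organoid array. Fatty acid synthesis was mixed, with 3 genes higher and 3 lower of 9. The desaturase Scd2 had 0.10 and 4.68, 23.8-fold higher, its relative Scd1 differed by -1.47, and Thrsp, high in fat cells, was at least 25.5-fold lower.

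Of 20 hypoxia and glycolysis genes, 16 were at least 2-fold higher and none was 2-fold lower, with a median of 1.55. Ero1a, which oxidises disulfides in the endoplasmic reticulum, had -3.8 and 0.32, 17.4-fold higher. P4ha2, a collagen prolyl hydroxylase, and Pfkl, a phosphofructokinase, were higher by 8.36-fold and 6.76-fold. Slc2a1, the glucose transporter, had -0.42 and 1.75, 4.5-fold higher, and Ldha, lactate dehydrogenase, was level at 7.9 and 7.78. The ATF4, cholesterol and hypoxia lists were higher on the o-organoid array too, with medians against the intestine of 2.08, 2.18 and 1.79. On the crypt array these medians were -0.54, 0.94 and 0.26.

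Immediate early genes, which handling of tissue can switch on within minutes, had a median of -1.14, with 8 of 15 at least 2-fold lower. Fos had 0.60 on the intestine, 2.22 on the crypt and -3.85 on the y-organoid array, 21.9-fold lower on the y-organoid than on the intestine. Jun and Egr1 differed by -0.23 and -0.13. Of the heat shock genes, Hspb1 was at least 127-fold lower, while the chaperonin Hspd1 and Hsp90aa1 were higher by 1.42 and 1.28.

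Genes of fetal-like or regenerating epithelium were mixed, with 3 higher and 7 lower of 13. Clu, clusterin, had 5.84 on the intestine, -2.81 on the crypt, 1.42 on the y-organoid and 2.48 on the o-organoid array. Ly6a, also called Sca-1, had 2.4, -3.54, 0.74 and -0.48 in the same order. Anxa1 had 0.77, was not above background on the crypt array and had -1.01 and 0.16 on the organoid arrays. All of Clu, Ly6a and Anxa1 were thus lower in the y-organoid than in the intestine and higher than in the crypt, and stroma and muscle of the organ can carry them too. Krt7 and Tnfrsf12a were higher by 1.86 and 1.31. Among YAP targets, Axl and Ccn2 were above background on the intestine array only of the pair, and Ajuba was higher by 1.52.

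Of 20 genes of acetylcholine and choline handling, 13 were above background on the intestine and 11 on the y-organoid array, and 7 were on neither. At least 2-fold, 1 was higher and 3 were lower. Chat, which makes acetylcholine, and Slc5a7, which takes up choline for it, were not well above background on either array. Slc18a3, the vesicular transporter, had -2.59 and -3.53, close to background. Of the degrading enzymes, Bche had 3.59 and 2.91, and Ache had -4.23 and -4.05. Slc44a1, a choline transporter of most cells, had 0.33 and 1.88, 2.93-fold higher, while Slc44a4 was lower by 2.1-fold. Crat, carnitine acetyltransferase, was at least 4.95-fold lower. The choline kinases Chka and Chkb and the choline transporters Slc44a2 and Slc44a3 were within 2-fold, as were Lynx1, a nicotinic modulator, and the bound of Colq, the collagen tail of the esterase. Slc44a5, Slc22a2, Slc22a3, Slc10a4 and Prima1 were not well above background on either array.

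Among the muscarinic receptors, Chrm3 stood out. It had -1.49 on the y-organoid and -2.33 on the o-organoid array and was not well above background on the intestine or crypt array, so that it was at least 7.93-fold higher on the y-organoid than on the intestine array. Chrm4 was at the edge of background, and Chrm1, Chrm2 and Chrm5 were not well above it on either array. Of 16 nicotinic subunits, 10 were not well above background on either array. Chrna2, Chrna4, Chrna9, Chrna10 and Chrnb4 were dim and within 2-fold, Chrna2 at -1.95 and -2.15, and Chrnb2 was above background in the y-organoid only of the pair. Those not above background were Chrna1, Chrna3, Chrna5, Chrna6, Chrna7, Chrnb1, Chrnb3, Chrnd, Chrne and Chrng.

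The largest measured differences on the higher side came from probes with one sequence feature. Of the 10 largest among annotated genes, 8 were read by probes that hold a run of at least 8 bases of alternating G and A. These were Klra1, Tbx22, Scn3b, Ddx25, Rabgap1, Tdgf1, Cd300lf and St6galnac1. The sign turned for Cd300lf, to -0.73 as the median of its probes and -1.80 without repeat probes, and for Klra1, to -1.44 without repeat probes. The other two were Gdf15, a stress cytokine, with -2.54 on the intestine and 3.06 on the y-organoid array (48.7-fold higher), and Macc1, with -3.6 and 1.61 (37-fold higher). Among the 5 largest higher bounds, Mrgprg and Syn3 had such probes, while Mt4, a metallothionein, Eif2s3y and 4933405E24Rik did not. Mt4 had 1.82 on the y-organoid and 3.98 on the o-organoid array and was not above background on the intestine or crypt array.

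The probes are shown because the largest higher values share these letters. Each line gives 30 bases of the 60-base probe, 5′ to 3′ as in the array files, with the repeat in capitals. The first 3 hold the GA repeat and are among the 4 annotated genes with the largest measured differences. The last 4 hold the complementary CT repeat and are among those with the longest repeats. On build mm9, as in the files, the GA probes lie at chr6:130314070-130314129 for Klra1, chrX:104881102-104881161 for Tbx22 and chr9:35349535-35349594 for Ddx25. The CT probes lie at chr1:4900008-4900067 for Rgs20, chr14:76651979-76652038 for 2900040C04Rik, chr9:80161162-80161221 for Impg1 and chr7:148276140-148276199 for Pkp3. The files do not say in which exon a probe lies.
Klra1: gcagtgcaaAGAGAGAGAGAGAaaatctgg
Tbx22: aaggaaagagaaAGAGAGAGAGAGAGAGAG
Ddx25: gaatattgaAGAGAGAGAGAGAagagaggc
Rgs20: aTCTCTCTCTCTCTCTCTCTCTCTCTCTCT
2900040C04Rik: atagcaCTCTCTCTCTCTCTCTCTCTCTCT
Impg1: tatagtctcCTCTCTCTCTCTCTCTCTCTC
Pkp3: aggacCTCTCTCTCTCTCTCTCTCTCctct

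The probe of Klra1 had a signal of -3.28 on the intestine, -2.63 on the crypt, 3.82 on the y-organoid and -3.65 on the o-organoid array. That of Tbx22 had -3.08, -2.06, 3.87 and -3.36 in the same order. The probe of Ddx25 had -1.6, -1.53, 4.74 and -2.66, so that the y-organoid array alone stood high. Of the CT probes, that of Rgs20 had 1.74 on the intestine and 0.80 on the y-organoid array and that of Pkp3 had 3.20 and 2.46.

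Over all probes of the array, 98 with a GA repeat of at least 8 bases were measured on both arrays, with a median difference of 1.24, and 33 of them were at least 4-fold higher, 33.7% against 5.03% of all 19585 probes. With a repeat of 12 or more bases, all 24 of 24 were higher on the y-organoid array, 20 at least 4-fold, and the median was 4.73. The same GA probes had medians of 0.42 on the crypt and -0.83 on the o-organoid array, each against the same intestine array. Of the probes with a CT repeat of 12 or more bases, none of 16 was higher on the y-organoid array, and their median was -0.91. On the crypt and o-organoid arrays 2 and 0 of these were higher than on the intestine array, with medians of -0.32 and -0.39. Such repeats occur in many transcripts, and which transcript bound these probes was not tested. Repeat probes of either kind read 32 of the 751 genes at least 4-fold higher and 9 of the 905 lower, and without them 721 and 898 were counted.

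**Figure D4:**
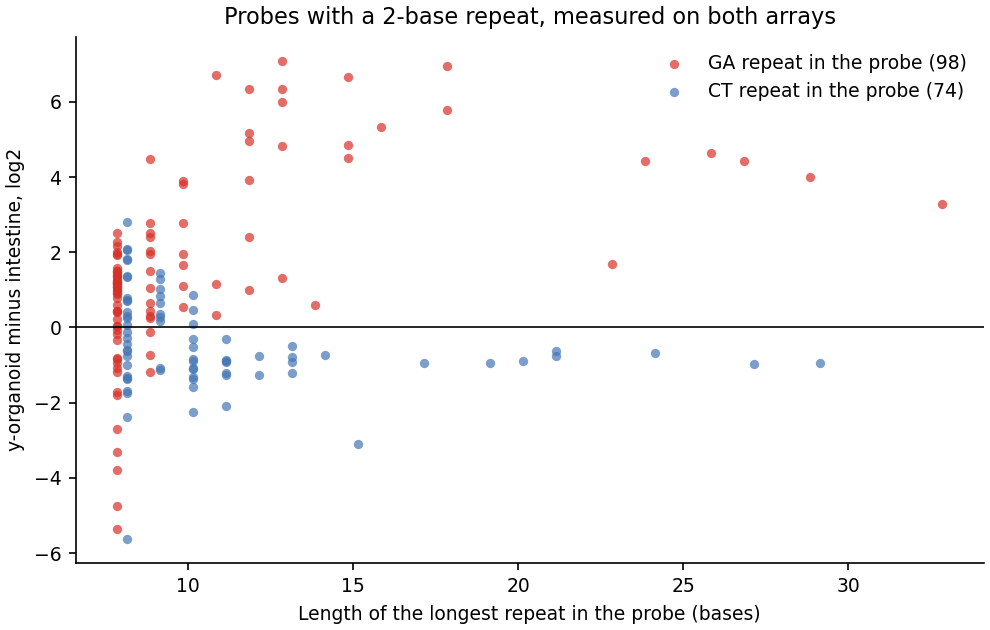
Difference between the y-organoid and intestine arrays (log2, y) of each probe with a GA repeat (red, 98 probes) or a CT repeat (blue, 74 probes) that was measured on both arrays, by the length of its longest repeat in bases (x). Every GA probe of 12 or more bases lies above 0, with a median of 4.73, and every CT probe of 12 or more bases lies below it, with a median of -0.91.

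Some genes without repeat probes are named here after their values were seen. On the higher side, Cbr3, a carbonyl reductase, had 0.39 and 5.47 (33.9-fold higher), and Gsta3, a glutathione transferase, had 0.69 and 5.51 (28.2-fold higher) with a difference of 4.25 by its other probe. Etv4, a factor downstream of growth factor receptors, had -1.03 on the intestine and 3.59 on the y-organoid array (24.5-fold higher) and 5.06 by its other probe. The o-organoid array was high for these as well, at 5.83, 6.13 and 2.9. On the lower side, Tff2, a trefoil peptide of stomach and duodenal glands, had 7.07 on the intestine, -4.4 on the crypt and -2.8 on the y-organoid array, 935-fold lower on the y-organoid than on the intestine.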

How the data were processed

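Total RNA was extracted by the acid guanidinium method, amplified from a low input and labelled with Cy3, per the labels' protocols, and each of 4 samples was read on 1 array. The authors deposited the scanner output, which gives an intensity per spot. Per the file headers, Agilent Feature Extraction 10.7.3.1 wrote them, subtracting background and detrending, on probe coordinates of build mm9. The authors also deposited a value table that holds a ratio: each processed intensity over 1 constant per array (40.5 for the intestine and 25.2 for the y-organoid), with a column median of 1.0 on the intestine array. It has a linear scale, uncentred genes and the direction of the intensities, and no source used here names its tool.

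Of 39429 probes other than controls, 27318 were named by accession, 3523 by symbol and 551 by synonym through the RefSeq table of assembly GRCm38.p6, and 8037 kept the file's name. Signals are log2 of the processed intensity minus log2 of the array's 75th percentile. Outlier spots were left out (162 on the intestine and 154 on the y-organoid array) and no spot was saturated. Replicate spots were averaged per probe, and the brightest probe over the 4 arrays stood for its gene. Genes above background on 1 array only have bounds: the dim side was set to the higher of its own signal and the array's lowest signal well above background. Calls are sizes (4-fold, and 2-fold for list members), not tests, because each group has 1 array, and the number of arrays limits the precision. Other arrays served for values side by side only, since the crypt and o-organoid differences share the intestine array.

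The members, the 48 gene lists and the rules were chosen with earlier results of these data known. Genes were named by the 10 largest differences and 5 largest bounds each way, up to 5 members of each list each way, a fixed set of markers and all acetylcholine genes. Other genes given were chosen after their values were seen, among them further list members, and some genes that these rules name and 1 probe stretch are not reported here. Of 655 list entries 8 were not matched to a probe. Alternatives were normexp background correction (limma 3.58.1, R 4.3.3, offset 50), the authors' deposited scaling, quantile normalization, other scalings, no filter on dim probes, the median of a gene's probes and no repeat probes. The comparison step, with its calls and bounds, was tested on simulated signals with known differences (Python 3.11.15, numpy 2.4.6, pandas 2.3.3). The naming, scaling, choice of probe, gene lists and repeat probes were not tested in this way.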

Additional observations from a re-analysis of the deposited data

Results flagged for a closer look

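The arrays carry 10 spike-in control probes, each on 32 spots, that enter no value above other than those with spike-in scaling. They were flagged because they give a strong signal in data outside the main measurement. Their highest intensity was 317774 on the intestine array and 299080 on the y-organoid array, against medians of 3.85 and 3.49 over 153 negative control spots. Over the 8 spike-in probes well above background on both arrays, the y-organoid minus intestine difference at the 75th percentile scaling had a median of 0.25, from 0.21 to 0.37 (SD 0.055 over 8 probes). No source used here says when the spikes were added. Scaling by them would shift every difference by -0.25.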

How the results depend on the processing

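Of 9 alternatives, spike-in scaling was chosen after seeing the data. No paired analysis was possible because each group has 1 array. Higher genes past 4-fold numbered 751 as reported, 328 after normexp, 494 with spike-in scaling and 1358 with no filter on dim probes, and lower genes 905 as reported and 2483 with no filter. After normexp, list medians came within 2-fold for endothelium (-0.46), neurons and glia (-0.0075), goblet cells (-0.98), microbial response (-0.49), reserve stem cells (0.92), fetal-like epithelium (-0.40), YAP targets (-0.48), immediate early genes (-0.21), Wnt ligands (-0.74), BMP and hedgehog (-0.71) and sex-linked genes (0.53). The neuron and glia median was -0.89 with the deposited scaling, -0.95 with quantile normalization and -0.85 with epithelial scaling. The fetal-like median was -0.93, -0.97 and -0.90 in the same order. YAP targets had -0.84 with the deposited scaling, -0.80 with epithelial scaling, -0.78 by the median of probes and 0.0023 with no filter. Immediate early genes had -0.91 with the deposited scaling, -0.87 with epithelial scaling and -0.55 with no filter. Wnt targets had 1.66 by the median of probes. The sign turned for Clca1 (-2.84), Kdr (-2.93), Msi1 (0.40) and Cd300lf (-0.73) by the median of probes, for Cd300lf (-1.80) and Klra1 (-1.44) without repeat probes, and for Cd53 (0.11) after normexp. The cause was not tested. The deposited scaling shifts every difference by 0.23. Dim genes are the least certain, since 959 lower and 170 higher genes past 4-fold are bounds.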

Other observations

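Gut region genes, which no comparison above uses, differed by a median of -0.43, with 7 of 9 within 2-fold. Gata4, a factor of the proximal small intestine, had 2.01 on the intestine and 1.77 on the y-organoid array, and Onecut2, also of the proximal gut, had 3.9 and 4.62. Pdx1, a factor of duodenum and pancreas, had -0.19 and -0.86. Car4 and Slc26a3, both of absorptive cells, were lower by 4.26-fold and 2.56-fold. The colon factors Hoxb13 and Hoxd13 were not well above background on either array.

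For some genes the probes disagree. Clca1 had a difference of 0.63 by its brightest probe, -6.31 by its other measured probe and -2.84 as the median of its probes. Kdr had 0.15 by its brightest probe and -2.93 as the median of its probes. No other probe of Kdr was well above background on both arrays.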
